A study of Mus musculus with 30 samples.

Results

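Neutrophil granule genes were followed library by library in haematopoietic stem cells (HSCs) sorted from mouse bone marrow, across 8 groups of age, genotype and housing. The genes were 10, chosen by symbol: Ltf, Camp, Ngp, Mmp8, Lcn2, Chil3, Retnlg, S100a8, S100a9 and Ly6g. All 10 matched an entry among the 35727 genes of the deposited table, and all 10 passed the filter on low values, which kept 16958 genes with a normalized count of at least 10 in at least 3 libraries. The set is looser than its working name. Ltf, Camp, Ngp, Mmp8 and Lcn2 code for granule proteins. S100a8 and S100a9 code for cytosolic proteins, Retnlg and Chil3 for secreted proteins, and Ly6g for a surface antigen. These classes are not exclusive, since secreted proteins can be stored in granules.

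Neutrophils fill their granules in waves as they mature in the marrow. Promyelocytes make the primary granules with myeloperoxidase and elastase, myelocytes and metamyelocytes make the specific granules with lactoferrin and cathelicidin, and later stages make the gelatinase granules. C/EBP family factors, C/EBP-epsilon among them, are known to drive the specific granule genes.

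The germ-free groups, labelled as mice with a germ-free bowel, held 3 libraries at 2 months and 2 at 1 year. Groups labelled IL1R1 KO held 3 libraries at 2 months, 4 at 1 year and 5 at 2 years. Wild-type (WT) mice gave 4 libraries at 2 months, 5 at 1 year and 4 at 2 years. Every library was labelled as HSCs, was made from directly sorted cells and was sequenced after Smart-seq2, which amplifies poly(A) RNA without marking strand. By the series title, the study asked about interleukin-1 and the microbiome in the ageing of these cells. The IL1R1 KO allele, the sort gate and whether replicates were separate animals are not stated in any source at hand, so a p-value here speaks of the spread among libraries, some of which may be technical.

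Estimated depth was 15.6 to 56.3 M reads, and the commonest low value, taken as 1 read, was 0.523 to 1.78 normalized counts. WT at 1 year was the deepest group (32.6 to 56.3 M, against 20.0 to 29.5 M in WT at 2 months). Genes of HSC identity, a list of 14 that includes Procr and Slamf1, summed to 110661 to 154128 normalized counts over the 30 libraries, so the markers of the labelled cell type were present throughout. Il1r1, the receptor gene named by the knockout, was no lower under the IL1R1 KO label: its log2 difference from WT was 0.40 ± 0.30 at 2 months, 0.28 ± 0.26 at 1 year and 0.25 ± 0.26 at 2 years (SE, limma adjusted p = 0.714, 0.751 and 0.804). Directions given for those libraries therefore rest on the label.

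In position the genes fell into a few neighbourhoods (GENCODE M21, GRCm38). On chromosome 9 were Mmp8 at chr9:7558456-7568485, Camp at chr9:109847379-109849617, Ngp at chr9:110419747-110423012 and Ltf at chr9:111019271-111042767. Camp and Ngp lay 570.1 kb apart, and Ngp and Ltf 596.3 kb apart. S100a8 (chr3:90668978-90670035) and S100a9 (chr3:90692632-90695721) were 22.6 kb apart on opposite strands, and Chil3 was at chr3:106147554-106167564. Lcn2 (chr2:32384633-32388252), Ly6g (chr15:75155240-75159126) and Retnlg (chr16:48872621-48874496) stood alone.

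The 150 bases before the RefSeq start of 5 of the genes are shown 5′ to 3′ on the coding strand (GRCm38.p6), because C/EBP factors are known regulators of granule genes and these windows lie before the GENCODE gene too, apart from 21 bases for Ltf. Capitals mark matches to the C/EBP core TTNNGNAA on either strand, without regard to overlap. The windows are chr9:111019142-111019291 (+) for Ltf, chr9:7558279-7558428 (+) for Mmp8, chr3:90695722-90695871 (-) for S100a9, chr3:106167565-106167714 (-) for Chil3 and chr16:48872458-48872607 (+) for Retnlg.
Ltf: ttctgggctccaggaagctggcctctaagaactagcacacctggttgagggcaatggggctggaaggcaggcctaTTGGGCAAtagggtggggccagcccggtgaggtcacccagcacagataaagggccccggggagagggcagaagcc
Mmp8: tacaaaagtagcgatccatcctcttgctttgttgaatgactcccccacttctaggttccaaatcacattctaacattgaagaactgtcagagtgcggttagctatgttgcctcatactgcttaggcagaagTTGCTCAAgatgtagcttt
S100a9: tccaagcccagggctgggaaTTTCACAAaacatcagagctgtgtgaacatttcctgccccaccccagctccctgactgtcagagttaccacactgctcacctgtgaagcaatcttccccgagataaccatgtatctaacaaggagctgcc
Chil3: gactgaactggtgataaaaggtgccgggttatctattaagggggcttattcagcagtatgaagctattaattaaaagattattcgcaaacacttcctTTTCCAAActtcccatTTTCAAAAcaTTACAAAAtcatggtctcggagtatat
Retnlg: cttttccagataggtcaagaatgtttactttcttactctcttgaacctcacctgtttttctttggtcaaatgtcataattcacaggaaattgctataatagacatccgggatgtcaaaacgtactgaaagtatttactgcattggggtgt
Over the longer RefSeq window, from 250 bases before to 50 after the start, the core occurred for 9 of the 10 genes, all but Camp and with Retnlg's match outside the bases shown, against 40.7% of all 32851 windows. The TATA box TATAAA occurred for 5 (Mmp8, Chil3, S100a8, S100a9 and Ly6g) and the ETS core GAGGAAG, which PU.1 can bind, for 4 (Mmp8, Lcn2, S100a8 and Ly6g), each against 13.6% of all windows. Both were sought on either strand, and none of these TATA box and ETS core matches lies wholly within the bases shown. A gene was counted if any of its windows matched, whereas the percentages are of single windows, so the 2 are not on the same footing. A match of letters is a description and not a binding site.

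**Figure D1:**
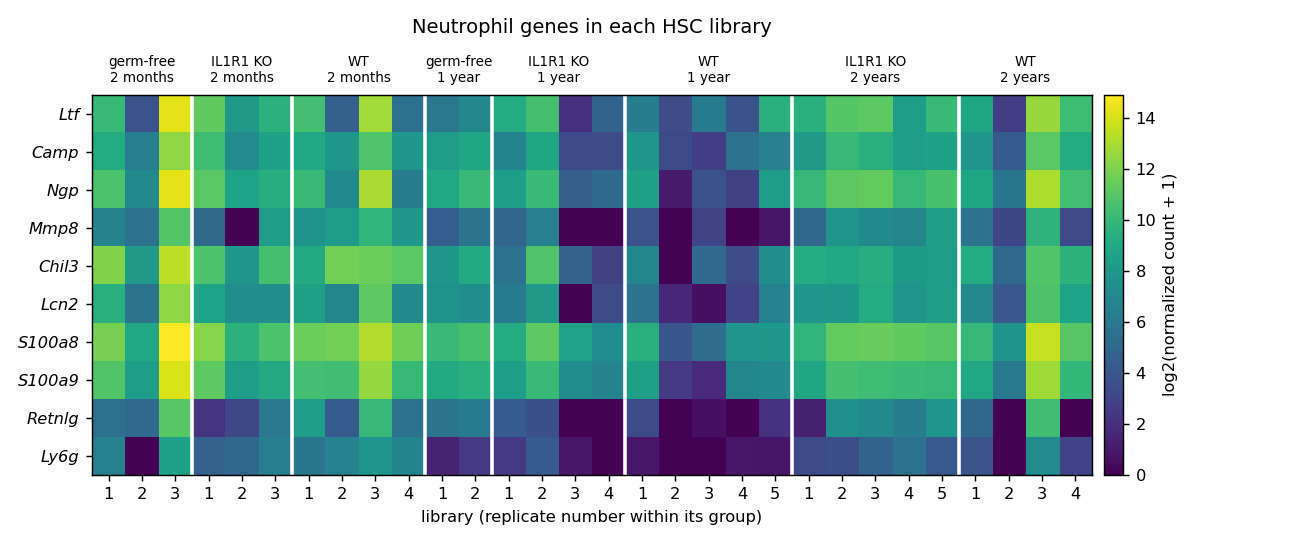
Level of each of the 10 genes (rows) in each of the 30 libraries (columns, by replicate number within a group), as log2(normalized count + 1). The darkest block is WT at 1 year, where levels are lowest. Germ-free replicate 3 of 2 months, WT replicate 3 of 2 months and WT replicate 3 of 2 years are among the brightest columns.

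Across libraries the 10 genes moved over a wide range. Their summed normalized count made up 0.412% of the library in germ-free replicate 3 of 2 months and 0.000145% in WT replicate 2 of 1 year, several orders of magnitude apart. Libraries of 1 group also lay far apart. In germ-free groups the sum was 1458 to 116357 at 2 months and 2995 to 4788 at 1 year. Among IL1R1 KO libraries it was 2358 to 15297 at 2 months, 344 to 8733 at 1 year and 4134 to 11232 at 2 years. In WT it was 7383 to 40829 at 2 months, 42.5 to 1924 at 1 year and 408 to 42606 at 2 years. WT at 1 year had the lowest median of the 8 groups for all 10 genes. The highest median was in germ-free mice at 2 months for 6 genes, in WT at 2 months for 3 (Mmp8, Retnlg and Ly6g) and in IL1R1 KO at 2 years for Ltf, but 68 of 70 neighbouring pairs of groups in these orders overlapped. In bulk samples, fewer cells of a type and less RNA per cell cannot be told apart. Per kilobase of exon, S100a8 had the highest median level (2305 normalized counts), followed by S100a9 (1201), Ngp (460), Camp (371), Chil3 (314), Ltf (151), Lcn2 (63.0), Retnlg (42.6), Mmp8 (20.6) and Ly6g (12.9). Retnlg was at 0 in 6 libraries, Mmp8 and Ly6g in 5 each, Chil3 and Lcn2 in 1 each, and the others in none.

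The age comparison with the most change was WT at 1 year against WT at 2 months, where 7 of the 10 genes fell: Ly6g, Mmp8, S100a8, Chil3, S100a9, Retnlg and Lcn2. Over all 16958 genes tested by limma, 10.7% passed in either direction and 4.61% were lower (Benjamini-Hochberg adjusted p under 0.05). In 8 of the 10 genes every 1-year library was below every 2-month library, a pattern that 5.62% of all tested genes had. The exceptions were Ltf and Ngp. An unadjusted p under 0.05 was reached by 9 of the 10, against 23.5% of all tested genes. The median log2 change of the 10 genes was -5.33, against 0.01 over all tested genes. When log2 depth, which differed between these groups without overlap, was added to the model, 1 call was kept, Ly6g at -5.79 ± 1.54 (SE, limma adjusted p = 0.0264). The other 6 kept their direction in that model, at -6.10 for Mmp8 and -5.58 for Retnlg, close to the values without it, and at -4.48 for Chil3, -3.97 for S100a8, -3.73 for S100a9 and -2.80 for Lcn2 (limma adjusted p = 0.0870 to 0.478). The shares of all genes above are from the model without depth.

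**Figure D2:**
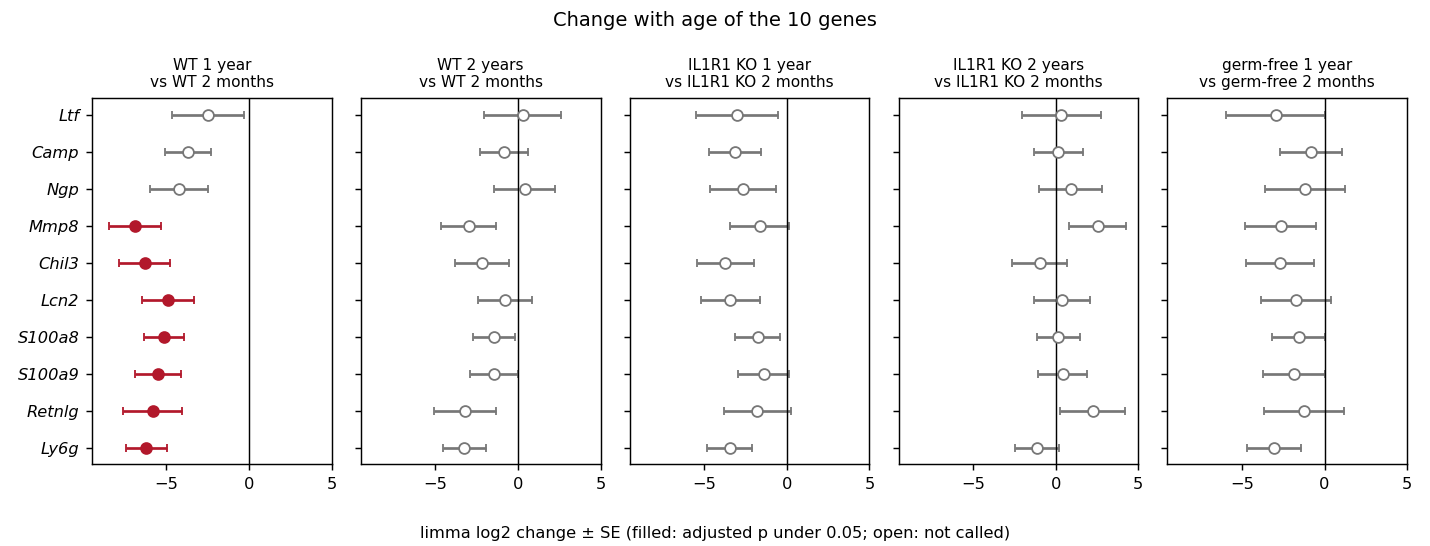
Change of the 10 genes at 1 year and 2 years against 2 months within WT, IL1R1 KO and germ-free mice, as the limma log2 change (x axis, points) with its SE (bars), filled where the adjusted p was under 0.05. Filled points occur in WT at 1 year against 2 months, for 7 genes between -4.91 and -6.87, and in no other panel.

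Of the specific granule genes, Ltf codes for lactotransferrin, which binds iron. Ltf had 80.3, 10.7, 71.2, 12.8 and 727 normalized counts in the 5 WT libraries of 1 year, against 1413, 22.7, 7593 and 42.6 in the 4 of 2 months. The groups overlapped, since replicates 1, 3 and 5 of 1 year were above replicates 2 and 4 of 2 months, and the log2 change was -2.47 ± 2.19 (SE, limma adjusted p = 0.550). Camp, the gene of the antimicrobial peptide cathelicidin, had 239, 9.06, 5.77, 48.5 and 90.6 at 1 year, against 496, 242, 1776 and 247 at 2 months. Every 1-year value was lower, although replicate 1 of 1 year came within a few counts of the lowest 2-month library, and the change was -3.68 ± 1.38 (SE, limma adjusted p = 0.0956). Ngp, which codes for a cystatin-like protein of neutrophil granules, had 374, 1.14, 12.4, 6.23 and 321 at 1 year, against 1123, 133, 8384 and 77.2 at 2 months. Here replicates 1 and 5 of 1 year exceeded replicates 2 and 4 of 2 months, and the change was -4.22 ± 1.76 (SE, limma adjusted p = 0.142). With array quality weights, Camp and Ngp passed as well (-4.04 ± 1.31 and -5.23 ± 1.71, SE; limma adjusted p = 0.0458 and 0.0482).

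Mmp8, the neutrophil collagenase, was near the limit of detection at 1 year. It had 13.3, 0, 7.31, 0 and 0.828 normalized counts in WT at 1 year, against 208, 303, 881 and 249.8 in WT at 2 months. All 4 libraries of 2 months were well above the highest of 1 year, and the log2 change was -6.87 ± 1.58 (SE, limma adjusted p = 0.00507). Lcn2, the gene of lipocalin-2, which withholds iron from bacteria by binding their siderophores, had 49.2, 2.28, 0.519, 7.09 and 92.8 at 1 year, against 362, 114, 2436 and 133 at 2 months. The groups did not overlap, and the change was -4.91 ± 1.55 (SE, limma adjusted p = 0.0440). The Lcn2 call ended without any single 2-month library (adjusted p = 0.0534 to 0.138) and without replicate 2, 3 or 4 of 1 year (adjusted p = 0.0829 to 0.116).

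Among the secreted proteins, Chil3 codes for the chitinase-like lectin Ym1. Chil3 had 114, 0, 32.7, 9.74 and 169 normalized counts in WT at 1 year, against 535, 3425, 2933 and 2242 in WT at 2 months, without overlap, and the log2 change was -6.31 ± 1.53 (SE, limma adjusted p = 0.00873). Its close relative Chil4, which can share reads with it, was at 0 in all WT libraries and reached at most 9.38 in any group. Retnlg, a resistin-like hormone gene of the granulocyte lineage, had 9.32, 0, 0.516, 0 and 3.31 at 1 year, against 316, 17.9, 997 and 48.5 at 2 months. No 1-year library reached the lowest 2-month library, and the change was -5.82 ± 1.79 (SE, limma adjusted p = 0.0360). The Retnlg call ended when replicate 1, 3 or 4 of 2 months was left out (adjusted p = 0.0871, 0.112 and 0.0517), or replicate 2, 3, 4 or 5 of 1 year (adjusted p = 0.0549 to 0.0785).

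S100a8 and S100a9 code for the subunits of calprotectin, a calcium-binding protein that fills the neutrophil cytosol. S100a8 had 682, 14.8, 38.7, 222 and 243 normalized counts in WT at 1 year, against 2929, 3488, 9581 and 3221 in WT at 2 months, and its log2 change came to -5.15 ± 1.19 (SE, limma adjusted p = 0.00628). S100a9 had 362, 4.48, 2.59, 114 and 136 at 1 year, against 1439.8, 1331, 6030.3 and 1015 at 2 months, a change of -5.51 ± 1.37 (SE, limma adjusted p = 0.0109). Neither gene overlapped between the ages, and replicates 2 and 3 of 1 year were the lowest of all 30 libraries for both. Per kilobase of exon, the level of S100a8 exceeded that of S100a9 in 30 of 30 libraries, by a ratio of 1.15 to 11.2 with a median of 1.55. The top ratio came from WT replicate 3 of 1 year, where S100a9 stood at 2.59.

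Ly6g, the antigen by which mouse neutrophils are usually recognised, gave the smallest p-value. In WT at 1 year it had 0.847, 0, 0, 0.892 and 0.827 normalized counts, against 54.1, 99.4, 217 and 107 in WT at 2 months. The 3 values above 0 at 1 year amount to about 1 read each, since 1 read was worth 0.523 to 0.888 in that group. The log2 change was -6.20 ± 1.22 (SE, limma adjusted p = 0.0010), and because the 1-year group sat at or near 0 its size moved with the pseudocount, to -6.87 with 0.5 and -4.34 with 5. Ly6g passed under all 19 alternatives run for this comparison, Mmp8 and S100a8 under 18, Chil3 and S100a9 under 17, and Lcn2 and Retnlg under 10. None of the 7 changed sign. Ly6c2, a relative that can share reads with Ly6g, had 104, 13949, 633 and 11490 normalized counts in WT at 2 months and 3.29 to 368 in WT at 1 year. The part of shared reads in the Ly6g values was not tested.

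**Figure D3:**
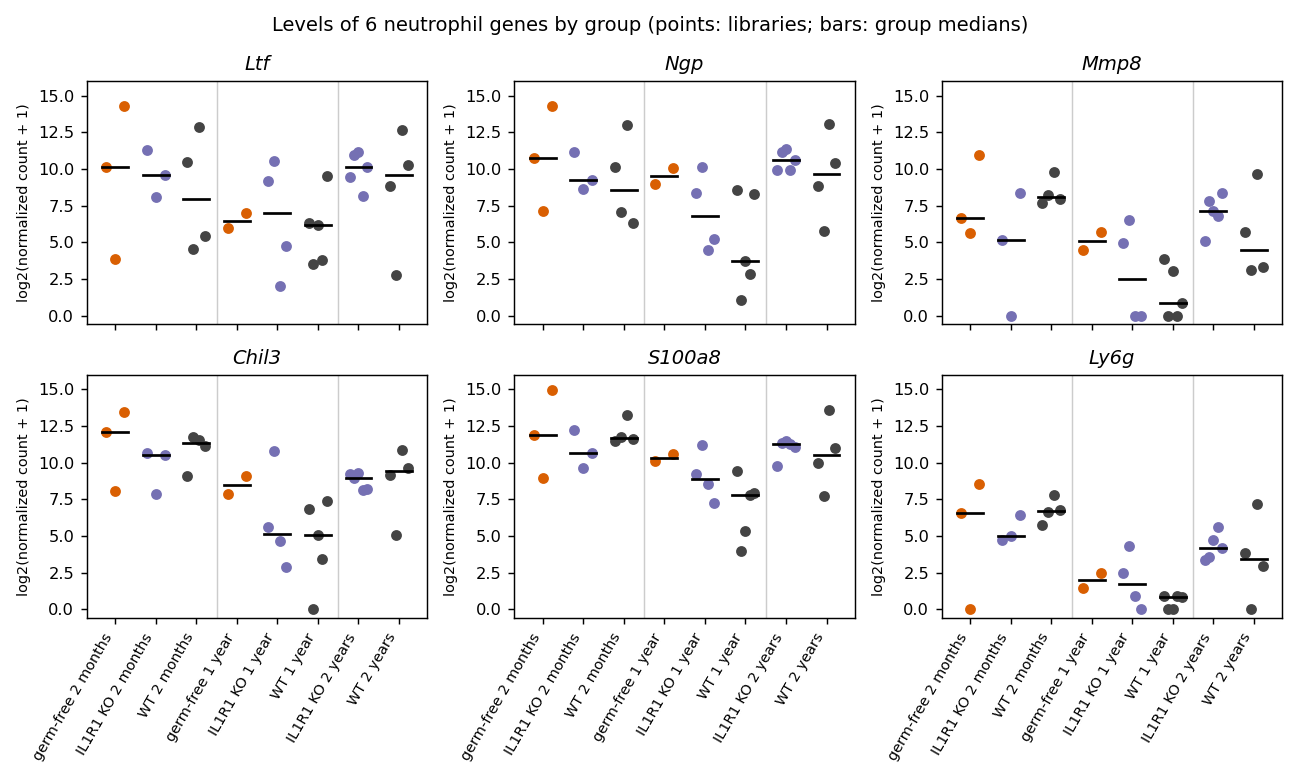
Level of Ltf, Ngp, Mmp8, Chil3, S100a8 and Ly6g in each group, as log2(normalized count + 1), with 1 point per library and a bar at the group median. WT at 1 year has the lowest median in each panel, and the WT libraries of 2 years run from 32.8 to 1854 normalized counts for Chil3 and from 5.68 to 6377 for Ltf.

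At 2 years the WT libraries were scattered. Replicate 3 had 12535 normalized counts of S100a8, 8619 of Ngp, 6377 of Ltf and 145 of Ly6g, whereas replicate 2 had 208, 54.5, 5.68 and 0. Replicates 1 and 4 lay between, with 989 and 2104 of S100a8 and 13.4 and 6.92 of Ly6g. Against 2 months, 0 of 10 genes passed in limma and 1 had an unadjusted p under 0.05, where 5.55% of all genes passed and 18.0% had such a p. That gene was Ly6g, at -3.23 ± 1.28 (SE, limma adjusted p = 0.158). Without replicate 3 of 2 years its change was -4.46 ± 1.27 and passed (SE, limma adjusted p = 0.0373). Against 1 year, all 10 estimates were above 0, between 2.62 for Retnlg and 4.62 for Ngp, with a median of 3.80. None was called: 0 of 10 passed in limma, where 0.0118% of all genes did, and 7 had an unadjusted p under 0.05, where 4.36% of all genes did. The adjusted p was 1 for each.

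Libraries labelled IL1R1 KO differed among themselves at 1 year. For Ly6g the values were 25.1, 31.8 and 84.4 at 2 months, 4.59, 18.6, 0.895 and 0 at 1 year and 9.20, 10.9, 25.6, 47.3 and 17.0 at 2 years. For S100a8 they were 4750.3, 782 and 1639 at 2 months, 597, 2366, 382 and 154 at 1 year and 875, 2566, 2818, 2540.5 and 2115 at 2 years. Replicates 3 and 4 of 1 year had 3 of the 10 genes at 0 each, and replicate 2 of 1 year had 1814 of Chil3, well above the other 3. At 1 year against 2 months, 0 of 10 genes passed in limma (2.00% of all genes did) and 2 had an unadjusted p under 0.05 (14.3% of all genes did). These were Ly6g, at -3.46 ± 1.39 (SE, limma adjusted p = 0.226), and Chil3, at -3.71 ± 1.74 (SE, limma adjusted p = 0.332), and the median over the 10 was -2.83. Ly6g was also the 1 gene of 10 whose 1-year libraries all lay below those of 2 months (5.34% of all genes). At 2 years against 2 months, 0 passed (8.02% of all genes did) and 0 had an unadjusted p under 0.05, with a median of 0.37. At 2 years against 1 year, 0 passed and 4 had an unadjusted p under 0.05 (0.177% and 7.37% of all genes), with a median of 3.32. The 4 were Camp, Mmp8, Lcn2 and Retnlg, with estimates of 3.29, 4.18, 3.82 and 4.01 on the log2 scale. Replicate 1 of 1 year carries conflicting age labels, 1 year in its title and 2 months in its age field, and was kept at 1 year. With it placed at 2 months instead, none of the 10 genes passed in any IL1R1 KO comparison.

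In IL1R1 KO mice at 2 years some genes varied less among libraries than others. Ngp was 972 to 2645 and Ltf 288 to 2339.7 in the 5 libraries, against 54.5 to 8619 and 5.68 to 6377 in the 4 WT libraries of that age. S100a9 was 429.5 to 1462, against 65.5 to 7049.9 in WT. Retnlg varied more in proportion, with 1.53, 178, 133, 78.5 and 232 in the IL1R1 KO libraries. It had 31.0, 0, 1295 and 0 in the WT libraries. Mmp8 was 32.3 to 331, against 7.85 to 826 in WT. For every gene of the set the IL1R1 KO values lay inside the WT range. The top of that range was WT replicate 3 of 2 years for each gene.

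Germ-free libraries differed most among themselves at 2 months. Replicate 3 of 2 months had the highest value of all 30 libraries for each of the 10 genes, from 378 of Ly6g to 31268 of S100a8, while replicate 2 had 0 of Ly6g and 13.3 of Ltf. At 1 year the pair of germ-free libraries was close, with 1091 and 1560.3 of S100a8, 503 and 1082 of Ngp and 1.81 and 4.63 of Ly6g. Against 2 months, 0 of 10 genes passed in limma (2.10% of all genes did) and 0 had an unadjusted p under 0.05, with a median of -1.78. Without replicate 2 of 2 months, Ly6g passed at -5.58 ± 1.40 (SE, limma adjusted p = 0.0308). The library left out there was the one with 0 of Ly6g, and only replicates 1 and 3 of 2 months remained.

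Between genotypes at the same age, IL1R1 KO and WT libraries overlapped in all 10 genes. At 2 months Mmp8 had 35.0, 0 and 322 normalized counts in IL1R1 KO libraries, against 208, 303, 881 and 249.8 in WT libraries, a log2 difference of -3.93 ± 1.80 (SE, limma adjusted p = 0.491). It was the 1 gene of 10 with an unadjusted p under 0.05 at that age (9.57% of all genes), and 0 passed in limma (0.407% of all genes). At 1 year 0 passed (1.30% of all genes did) and 0 had an unadjusted p under 0.05. The estimates at 1 year were all above 0, with a median of 1.35, and S100a9 had the largest, 2.77 ± 1.37 (SE, limma adjusted p = 0.434). At 2 years both counts were again 0 (1.42% of all genes passed), with a median of 0.78. The SE was 1.19 to 2.50 over the 10 genes and 3 ages, so changes of several fold in either direction were within the error.

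Germ-free and WT libraries at 2 months were not told apart either, with 0 of 10 genes passing in limma (0.601% of all genes did) and 0 at an unadjusted p under 0.05, and a median log2 difference of 0.30. At 1 year the germ-free values lay above WT for most genes. In 9 of the 10 genes, all but Ltf, both germ-free libraries were above all 5 WT libraries, a pattern that 13.2% of all tested genes had with groups of this size. Ngp had 503 and 1082 normalized counts in germ-free libraries, against 374, 1.14, 12.4, 6.23 and 321 in WT libraries, a log2 difference of 4.62 ± 2.20 (SE, limma adjusted p = 0.241). Retnlg had 52.6 and 72.9 in germ-free libraries, against 9.32, 0, 0.516, 0 and 3.31 in WT libraries, a difference of 4.76 ± 2.23 (SE, limma adjusted p = 0.229). For S100a8, with 1091 and 1560.3 in germ-free libraries and 682, 14.8, 38.7, 222 and 243 in WT libraries, the difference was 3.46 ± 1.49 (SE, limma adjusted p = 0.186). None of the 10 passed in limma, where 4.96% of all genes did, and 5 had an unadjusted p under 0.05 (Ngp, Chil3, S100a8, S100a9 and Retnlg), where 20.1% of all genes did. The median difference was 3.74, against -0.000787 over all tested genes. With the model fitted to these groups only, Retnlg passed at 4.76 ± 1.02 (SE, limma adjusted p = 0.0298). Erythroid markers moved in the same comparison, with 5 of 13 called higher and 0 lower, and depth was 15.6 to 23.9 M reads in germ-free libraries and 32.6 to 56.3 M in WT libraries. With log2 depth in the model 0 of the 10 passed, as without it, and the part of the erythroid markers was not tested.

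Whether the age change itself differed from that of WT was tested as a difference of changes. For IL1R1 KO at 1 year against 2 months, 0 of 10 genes passed in limma and 1 had an unadjusted p under 0.05, Mmp8 at 5.23 ± 2.39 (SE, limma adjusted p = 0.455); 0.0354% and 10.1% of all genes did so. At 2 years against 2 months the counts were 0 and 1, again Mmp8, at 5.50 ± 2.39 (SE, limma adjusted p = 0.437), with 0.395% and 9.73% of all genes. At 2 years against 1 year they were 0 and 0 (0.0177% of all genes passed). For germ-free mice at 1 year against 2 months they were 0 and 0 (0% of all genes passed). The 7 calls in WT at 1 year are thus not shown to be particular to WT. The groups of each age change share their 2-month or 1-year libraries with the genotype comparisons, so these results are not independent of each other.

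**Figure D4:**
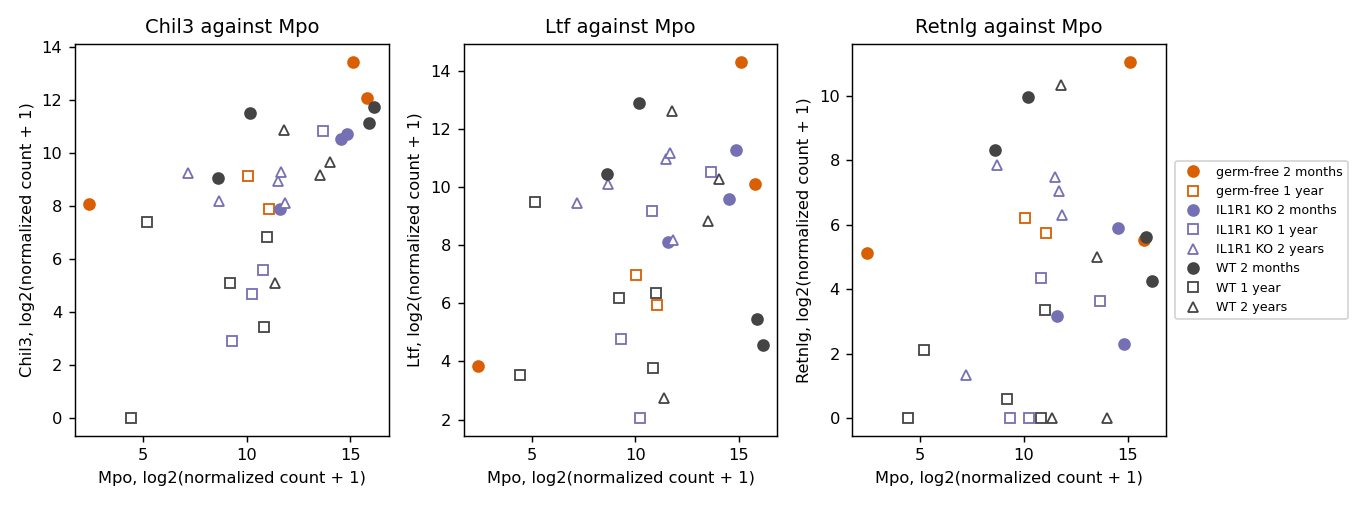
Chil3, Ltf and Retnlg (y axes) against Mpo (x axes) in the 30 libraries, all as log2(normalized count + 1). Symbols are filled for 2 months, open squares for 1 year and open triangles for 2 years. Libraries with the highest Mpo include some with low Ltf, whereas their Chil3 is high.

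The 10 genes did not follow the precursor genes of primary granules closely. Mpo, the myeloperoxidase of promyelocytes, was 56547, 4.33 and 35472 normalized counts in germ-free libraries of 2 months, 29251, 3075 and 23626 in IL1R1 KO libraries and 392, 73276, 1159 and 60867 in WT libraries of that age. At 1 year it was 2126 and 1065 in germ-free libraries, 1795, 12929.9, 1215 and 632 in IL1R1 KO libraries and 2045, 20.5, 588, 1832 and 35.3 in WT libraries. At 2 years it was 145, 2899.7, 3281, 3640.2 and 408 in IL1R1 KO libraries and 11719, 2630.4, 3529 and 16541 in WT libraries. Mpo was above 20000 in 6 libraries, all of 2 months, and these came from each of the 3 kinds of mice. Elane, neutrophil elastase, was 3.33 to 621 in WT at 1 year and 72.8 to 19761 in WT at 2 months. In WT at 2 months, replicates 2 and 4 had the most Mpo but little Ltf (22.7 and 42.6) and Retnlg (17.9 and 48.5), with much Chil3 (3425 and 2242). Replicates 1 and 3, with low Mpo, had more Ltf (1413 and 7593) and Retnlg (316 and 997), while Ly6g was 99.4 and 107 in replicates 2 and 4 and 54.1 and 217 in replicates 1 and 3. Over the 30 libraries, which share groups and depth, Pearson's r with Mpo was 0.22 for Retnlg, 0.30 for Ltf and 0.36 for Ngp, and 0.59 for Chil3 and S100a8 and 0.63 for Ly6g. Without the 6 libraries of 2 months with Mpo above 20000, 5 of the 10 genes passed in WT at 1 year against 2 months. They were Mmp8, S100a8, S100a9, Retnlg and Ly6g. This alternative was chosen after the data were seen. It left only replicates 1 and 3 in WT at 2 months, the libraries with the most Ltf and Retnlg of that group. The 10.7% of all tested genes called in this comparison is for all 30 libraries, not for this alternative.

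Among themselves the 10 genes were closer, with r of 0.65 to 0.98 over 45 pairs and a median of 0.81. S100a8 with S100a9 (0.98), Camp with Lcn2 (0.96) and Ngp with Lcn2 (0.93) were the tightest pairs, and Ltf with Mmp8 (0.65) was the loosest. With group means removed the range was 0.45 to 0.97 and the median 0.72, so the genes also varied together among libraries of 1 group. The ratio of Chil3 to Retnlg normalized counts, not corrected for length, spanned 1.26 (IL1R1 KO replicate 5 of 2 years) to 429 (IL1R1 KO replicate 1 of 2 months) where Retnlg was above 0. Outside the set, the 12 genes of 12496 candidates whose log2 level over the 30 libraries was most like the mean of the 10 included Wfdc21 (r = 0.92), Cd177 (0.87), Ifitm6 (0.83), Lilrb4a (0.81), Lilr4b (0.80), Itgb2l (0.79), Mmp9, Ccl6, Hp and Mcemp1 (0.76 each) and Rasgrp4 (0.75). Cd177 is a surface glycoprotein of neutrophils and Mmp9 the gelatinase of their granules.

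Other genes of the lineage were less uniform in WT at 1 year against 2 months, where 10.7% of all tested genes were called and 4.61% were called lower. Of 20 further specific and gelatinase granule genes, 5 fell and 0 rose, with a median of -1.41. They were Hp, the haemoglobin-binding haptoglobin (-5.50), Wfdc21 (-4.66), the NADPH oxidase subunits Cybb (-3.58) and Cyba (-0.75), and the integrin Itgam (-1.71). Of 12 primary granule genes, 4 fell (Igsf6, Nkg7, Prss57 and Serpinb1a, between -3.82 and -0.82) and 1 rose (Prtn3, proteinase 3, at 0.60), while Mpo at -4.58 ± 2.20 (SE, limma adjusted p = 0.210) and Elane at -4.41 ± 2.12 (SE, limma adjusted p = 0.211) did not pass. Among 18 receptors and effectors of mature neutrophils, 2 fell, Ifitm6 at -5.81 among them, and 4 rose. The 4 were the chemokine receptor Cxcr1 (2.25), Clec4e (0.78), Padi4 (0.53) and Csf3r, the receptor of granulocyte colony-stimulating factor (0.38). Of 12 transcription factors of granulocyte formation, 3 fell, Cebpa (-3.42), Irf8 (-2.12) and Spi1, which codes for PU.1 (-0.73), and 1 rose, Ets1 (0.45). Cebpe, which codes for C/EBP-epsilon, did not pass, at -3.18 ± 1.12 (SE, limma adjusted p = 0.0676). The median over all tested genes was 0.01.

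Markers of other cells are set against the same 10.7% of all genes called and 4.61% called lower. Monocyte and macrophage markers fell in 3 of 13 (Cx3cr1, Ccr2 and Ms4a6c), with a summed level of 894 to 1502 normalized counts in WT at 1 year and 1534 to 28449 in WT at 2 months, and none of the 13 was at 0 throughout either group. Eosinophil markers fell in 3 of 7 (Epx, Prg2 and Prg3), with sums of 24.1 to 51.6 at 1 year and 45.0 to 3705 at 2 months, and none at 0 throughout. Erythroid markers fell in 4 of 13 and rose in 1, with sums of 51592 to 67316 at 1 year and 55343 to 58834 at 2 months. Mast cell and basophil markers fell in 1 of 7 (Hdc), with sums of 15512 to 20977 at 1 year and 13691 to 31521 at 2 months. Of B and plasma cell markers 0 of 12 were called, of 9 tested T and NK cell markers 1 rose and 0 fell, and of 7 tested endothelial and stromal markers 2 rose and 1 fell. HSC identity genes rose in 7 of 14 and fell in 0, Procr by 0.68 and Slamf1 by 0.89, with sums of 147240 to 154128 at 1 year and 118656 to 121018 at 2 months. The part of any of these cell types in the falls of the 10 genes was not tested.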

How the data were processed

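RNA of sorted HSCs was sequenced in 30 libraries of 8 groups. The submitters' processing notes name Salmon 1.2.0.0, DESeq2 1.26.0, cutadapt 2.10 and FastQC 0.11.9, and the build GRCm38 (mm10). What the authors deposited is a signal scale of normalized counts. The commonest low value of a library was taken as 1 read and gave its estimated depth. Only 10.9% to 18.4% of low values were a whole number of such reads (tolerance 0.001), so no count model was used. Values near 1 read differed between genes of a library, such as 0.519 for Lcn2 and 0.516 for Retnlg in WT replicate 3 of 1 year. Whether each library was scaled by a single factor was not tested. Without strand, reads of overlapping antisense genes cannot be told apart, and relatives such as Chil4 and Ly6c2 can share reads.

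Groups came from the titles. Values entered limma 3.58.1 (R 4.3.3) as log2(normalized count + 1), so changes of low genes are understated. The filter kept 16958 genes that reached 10 in 3 or more libraries, 1 model with a mean per group covered all libraries with trend and robust empirical Bayes, and two-sided p-values were Benjamini-Hochberg adjusted over all tested genes at 0.05 in each comparison. The fit was tested on simulated data. Figures were drawn with matplotlib 3.10.9 from tables made with pandas 2.3.3 and numpy 2.4.6 in Python 3.11.15. Promoter windows are RefSeq's on GRCm38.p6 and were matched by symbol for all 10 genes.

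Named were the 10 genes, up to 4 called genes of each other list by smallest p (further called genes of the granulocyte lists were added after their values were seen), Mpo, Elane and Il1r1, and the 12 genes most like the mean of the 10 by Pearson's r among tested, named genes with a group mean of at least 50. A few genes taken by this rule were left out of the text. Cebpe and the relatives Chil4 and Ly6c2 were named as well. The genes and lists were chosen with earlier results of these data known. No pair of libraries was identical, and the highest pairwise r over tested genes was 0.968. Same-numbered libraries were checked for pairing: their deviations from the group means correlated at -0.11 to 0.157 over 40 pairs, and in no comparison were all pairs above 0.1, so the numbers were not treated as pairs. Alternatives were the pseudocount, low-value filter, scaling, array quality weights, replicate block, log2 depth, groups fitted and each library left out. The IL1R1 KO library with conflicting age labels was also placed at 2 months. Leaving out the 2-month libraries with high Mpo was added after the data were seen.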

Additional observations from a re-analysis of the deposited data

Results flagged for a closer look

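In groups of 4 or 5 libraries, 15 of 50 pairs of gene and group had 1 library far from the others by Dixon's test. The test was run on normalized counts, not on the log2 scale of the fits. Its rate of about 1 in 20 holds for normally distributed values, so the 15 cannot be set against it. All 15 flagged values were the highest of their group. The 10 genes vary together, so these are not separate events. WT replicate 3 of 2 months stood high for 6 genes: Camp at 1776 normalized counts, Ngp at 8384, Mmp8 at 881, Lcn2 at 2436, S100a8 at 9581 and S100a9 at 6030.3. WT replicate 3 of 2 years also stood high for 6: Ngp at 8619, Mmp8 at 826, S100a8 at 12535, S100a9 at 7049.9, Retnlg at 1295 and Ly6g at 145. WT replicate 5 of 1 year had 727 of Ltf, while the next library had 80.3. IL1R1 KO replicate 2 of 1 year had 1814 of Chil3, while the next library had 47.4. IL1R1 KO replicate 3 of 2 years had 593 of Lcn2, while the next library had 312.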

How the results depend on the processing

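In WT at 1 year against 2 months, where 7 of 10 genes passed, 1 passed with log2 depth as a covariate, with Mmp8 at -6.10 and Retnlg at -5.58 little changed in size and S100a9 at -3.73 and Lcn2 at -2.80 smaller, and 5 to 7 passed when each library was left out in turn. In WT at 2 years against 2 months, where 0 passed, 1 passed with array quality weights (Ly6g, -3.82 ± 1.13, SE, limma adjusted p = 0.0473), and 0 to 1 passed on leaving out each library. In germ-free mice at 1 year against 2 months, 0 to 1 passed on leaving out each library. For germ-free against WT at 1 year, 1 passed when only these groups were fitted. The other 322 recomputed counts were labelled unchanged. Most of them belong to comparisons where 0 passed and 0 passed again. In WT at 1 year against 2 months, unchanged meant within 1.5 times of the reported 7. No gene's called change reversed in any alternative run. The replicate numbers did not pair the samples, and with a replicate block 7 of 10 genes passed in WT at 1 year against 2 months and 0 in the other comparisons. The changes of Ly6g, Mmp8 and Retnlg rest on few reads wherever a group is near 0. Shares of all genes called were given for the main fit, not for these alternatives.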
